A study of Mus musculus with 8 samples.

Results

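The genes described here are the 46 genes of a 752-gene RNA-seq table that had a higher value in every MC38 tumor from mice given anti-PD-1 and Fusobacterium nucleatum than in any tumor from mice given anti-PD-1 alone. They were chosen by these measured values, so their direction and size are given as a description with no test. A gene entered when the lowest log2 value of tumors 36, 37, 39 and 40 exceeded the highest of tumors 11, 17, 18 and 19, which 54 genes met. Removal of keratin and globin symbols, myofibril components, genes of the immune system process term and genes with 50% or more of their counts in tumor 36 or 90% or more in tumor 37 took out 8 of the 54 (Alas2, Ankrd2, Casq1, Krt7, Mybpc2, Myh4, Mylpf and Tnnc2). Both groups were wild-type (WT) germ-free C57BL/6 mice carrying subcutaneous tumors of MC38, a mouse colon adenocarcinoma cell line, and the tumors were taken on day 23. The 4 control tumors (11, 17, 18 and 19) came from mice given an anti-PD-1 antibody by intraperitoneal injection, and the other 4 (36, 37, 39 and 40) from mice given the same antibody and F. nucleatum ATCC-25586 by gavage. Anti-PD-1 is therefore shared by all 8 tumors, and no tumor without it was analysed here. The labels name 1 tumor per library and do not state that each came from a separate mouse.

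F. nucleatum is an anaerobic bacterium of the mouth that is found in human colorectal cancers, and PD-1 is the inhibitory T cell receptor that the antibody blocks. A gene list of the kind studied here mixes several kinds of transcript. Protein-coding genes are read into messenger RNA. Processed pseudogenes are copies of messenger RNAs that were pasted back into the genome, and reads of the parent gene can be assigned to them. Antisense and other long non-coding RNAs are transcripts without a known protein, often made from the strand opposite a coding gene, and some are at a level of a few reads per library. Of the 46 genes, 13 were protein-coding, 10 were processed pseudogenes, 21 were long non-coding or unclassified transcripts and 2 were small RNAs in the GENCODE M21 annotation.

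The deposited table holds genes selected by the authors. The largest p-value in it is 0.04995 and the smallest log2 difference in size is above 1. Of its genes, 399 were higher and 353 lower with F. nucleatum. The 54 genes whose groups did not overlap upward made up 7.18% of the table. Because the rule used that contrast, nothing is read from this share. One read corresponded to a normalized count of 0.789 to 1.55 depending on the tumor, and the depth of the libraries is unknown beyond these relative size factors (0.644 to 1.27). All values below are log2(normalized count + 1), normalized counts, recovered reads or FPKM (fragments per kilobase, scaled by library size) of the authors' deposited table. In bulk tissue, fewer cells of a type and less RNA per cell cannot be told apart. Of 12 listed epithelial and MC38 markers the table held Cldn4 and Epcam, both at 0 FPKM in all 4 anti-PD-1 tumors and at most at 1.03 and 1.302 FPKM in tumor 37, so the labelled cell line was not checked further here.

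The 46 genes were mostly at low levels. Their median log2 difference was 1.98 (range 1.03 to 3.69, median SE 0.51), against 1.94 for all 399 higher genes of the table. The signed median over all 752 was 1.18. It mixes higher and lower genes that all differ by more than 1 in size, so it is not the size of a typical gene. After median centring, which gives all tumors an equal median over the table, the median of the 46 was 1.37, and the groups overlapped in 39 of them, Efemp1 and Lims1 included. Centring lowered the values of tumors 36 and 37 and raised those of all other tumors. The median gene had 72 reads summed over the 8 tumors (range 17 to 56802), 29 of the 46 had fewer than 100 reads, and 5 had 10 or more reads in every tumor. A mean of 1 FPKM or more was held by 4 of the 46 (Lims1, Efemp1, AC238811.1 and Gm24727) and by 58 of the 353 other higher genes (16.4%). By the authors' deposited table, 1 of the 46 (Gm18935) had an FDR under 0.05, as did 113 of the 353 other higher genes. Higher genes with such an FDR made up 15.2% of all 752. The 113 other genes include Krt5 and Krt71, which were at 0 FPKM in every tumor except tumor 37. The deposited FDR was above 0.5 for 29 of the 46, and 21 had an unadjusted p-value under 0.01.

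**Figure D1:**
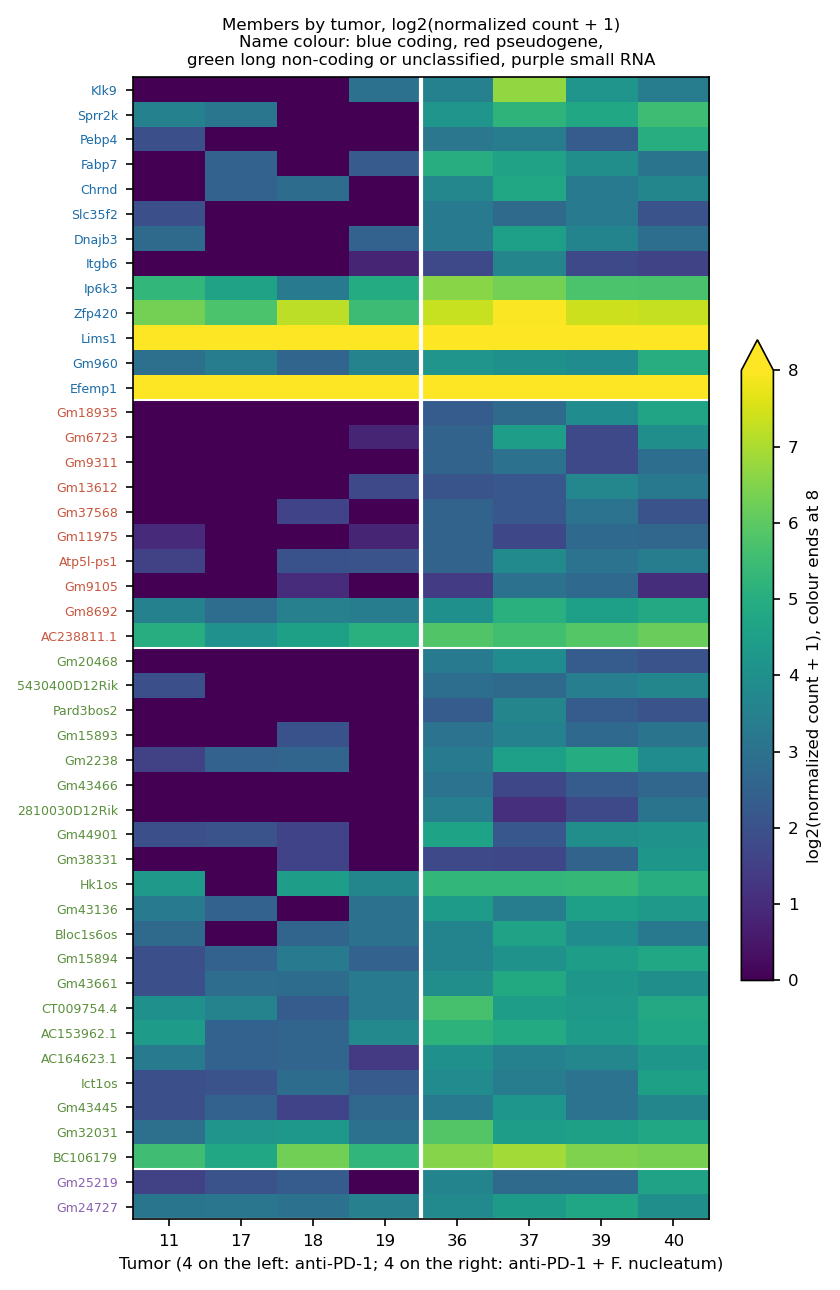
Colours give log2(normalized count + 1) of the 46 genes (rows, grouped by GENCODE class and ordered within a class by log2 difference) in the 4 anti-PD-1 tumors (left of the white line) and the 4 anti-PD-1 + F. nucleatum tumors (right). Dark cells are at or near 0 reads: 6 genes have 0 reads in all 4 anti-PD-1 tumors, and none has 0 reads in an F. nucleatum tumor.

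Efemp1 and Lims1 were the most abundant genes of the set. Efemp1 (chromosome 11, 28853204 to 28926743, plus strand, GRCm38) encodes fibulin-3, a secreted glycoprotein of the extracellular matrix. Its FPKM was 12.5, 9.23, 4.26 and 10.4 in anti-PD-1 tumors 11, 17, 18 and 19, and 13.3, 15.8, 28.2 and 17.0 in F. nucleatum tumors 36, 37, 39 and 40. Tumor 18 was the lowest of all and tumor 39 the highest, while tumors 11 and 36 lay side by side at the border of the groups. The log2 difference was 1.07 ± 0.41 (SE, n = 4 each), from 9.11 ± 3.51 to 18.6 ± 6.59 FPKM (mean ± SD), and the FDR in the authors' deposited table was 0.069. With median centring the difference was 0.46 and the groups overlapped.

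Lims1 (chromosome 10, 58323466 to 58424691, plus strand) encodes PINCH1, a LIM-domain adaptor that joins integrin-linked kinase at focal adhesions. Its FPKM was 20.4, 7.02, 6.78 and 20.3 in the anti-PD-1 tumors and 21.2, 27.6, 30.9 and 28.0 in the F. nucleatum tumors. The anti-PD-1 group fell into a low pair (tumors 17 and 18) and a high pair (tumors 11 and 19), and the high pair almost met tumor 36. On the log2 scale the gap between tumors 19 and 36 was 0.0083, so the entry of Lims1 rests on a margin far below the spread within either group. The log2 difference was 1.17 ± 0.46 (SE, n = 4 each), with an FDR of 0.80 in the authors' deposited table. It was 0.91 without tumor 18, 1.43 without tumor 19, and 0.56 with median centring, where the groups overlapped.

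The sequences just upstream of these genes are shown because these are the most abundant members. They run 5′ to 3′ in the direction of the gene, from RefSeq promoter entries on GRCm38.p6, and end before the annotated transcript. Efemp1 covers chr11:28852955-28853203 and Lims1 covers chr10:58323297-58323465 (1 of its 3 entries), both on the plus strand. Capitals mark matches to GGGCGG, the GC box, read on either strand.
Efemp1 upstream: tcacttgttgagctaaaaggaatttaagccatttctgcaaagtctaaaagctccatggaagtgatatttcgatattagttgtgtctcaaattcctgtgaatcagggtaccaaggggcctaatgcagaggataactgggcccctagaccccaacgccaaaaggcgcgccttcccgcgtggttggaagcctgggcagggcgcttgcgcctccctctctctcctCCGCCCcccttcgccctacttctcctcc
Lims1 upstream: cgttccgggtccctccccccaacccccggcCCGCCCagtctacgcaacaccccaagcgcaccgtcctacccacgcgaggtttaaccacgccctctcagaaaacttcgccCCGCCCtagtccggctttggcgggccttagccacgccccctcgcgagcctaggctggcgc
Efemp1 held 1 match and Lims1 held 2 in these stretches, which had GC contents of 53.4% and 69.8%.

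Itgb6, the integrin beta chain that pairs with alpha V in epithelia and binds latent TGF-beta, was rare. It had 0, 0, 0 and 1 reads in the anti-PD-1 tumors and 3, 10, 3 and 2 reads in the F. nucleatum tumors. Tumor 37 alone held 10 of the 18 reads of the F. nucleatum group, and the remaining 3 tumors lay 1 to 2 reads above the control that was not at 0. The pooled ratio was 16.5 with a 95% counting interval of 2.61 to 688, and the log2 difference was 1.52 without tumor 37 against 1.999 with it. Counting intervals cover counting error alone, because reads were pooled over the tumors of a group, and they leave out the spread between tumors. The labels also name no molecular identifiers.

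Sprr2k and Klk9 were placed together after their values were seen, and neither is in the keratinocyte and hair follicle list. Sprr2k is a small proline-rich protein of the cornified envelope, from a family of close copies among which reads cannot be assigned with certainty. It had normalized counts of 10.5, 7.76, 0 and 0 in the anti-PD-1 tumors and 16.8, 35.9, 26.6 and 44.4 in the F. nucleatum tumors. All 4 F. nucleatum tumors lay above the control range, as the rule requires of every gene of the set. The highest Sprr2k value was in tumor 40 and not in tumor 37. Klk9, a kallikrein-related serine peptidase, had 0, 0, 0 and 7.10 in the controls and 10.4, 103, 16.9 and 9.51 with F. nucleatum. Tumor 37 held 70.1% of the Klk9 counts, and the log2 difference was 3.69 ± 1.08 (SE, n = 4 each) with it and 2.94 without it. For Sprr2k the difference was 3.25 ± 1.01 and was 3.15 without tumor 37.

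Markers of keratinocytes and hair follicle were high in tumor 37. The table held 20 of 25 listed markers, and their summed level was 1.60 to 1.90 FPKM in the anti-PD-1 tumors against 2.83, 334, 1.57 and 2.51 FPKM in tumors 36, 37, 39 and 40. Krt5 and Krt71 were listed at 0 in every tumor except tumor 37. The part of these cells in the values of Sprr2k, Klk9 and Itgb6 was not tested.

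**Figure D2:**
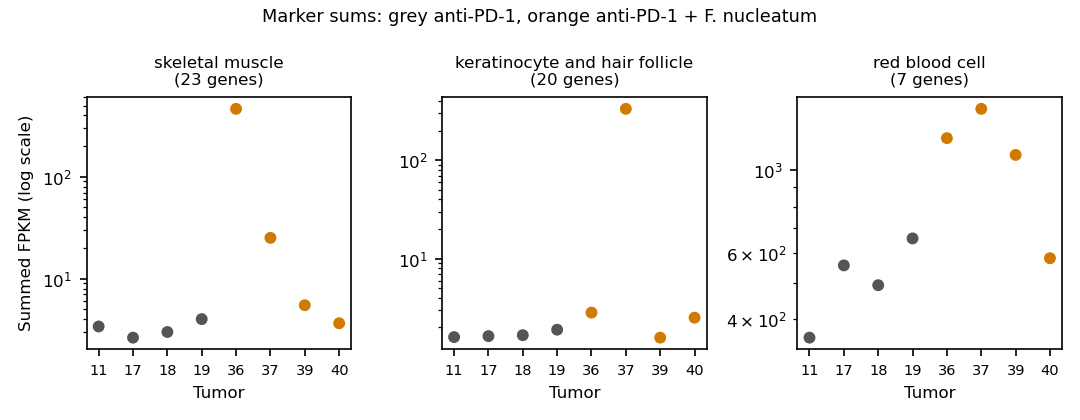
Summed FPKM (log axis) of the listed markers of skeletal muscle, of keratinocytes and hair follicle, and of red blood cells that the table holds, with 1 point per tumor. The muscle sum is highest in tumor 36 (464 FPKM) and the keratinocyte sum in tumor 37 (334 FPKM), while the red blood cell sum is 358 to 658 FPKM in the anti-PD-1 tumors and 582 to 1457 FPKM with F. nucleatum.

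Chrnd and Ip6k3 are both expressed in skeletal muscle. Chrnd encodes the delta subunit of the nicotinic acetylcholine receptor of the neuromuscular junction, and Ip6k3 an inositol hexakisphosphate kinase. Chrnd had normalized counts of 0, 4.66, 6.10 and 0 in the anti-PD-1 tumors and 12.03, 26.7, 8.87 and 11.6 with F. nucleatum. Ip6k3 had 38.3, 23.3, 9.14 and 29.2 in the controls and 95.5, 79.98, 52.4 and 50.7 with F. nucleatum. Tumors 36 and 37 held 17.2% and 38.1% of the Chrnd counts and 25.2% and 21.1% of the Ip6k3 counts, where the rule had left out genes with 50% or more in tumor 36. The log2 differences were 2.53 ± 0.84 and 1.55 ± 0.48 (SE, n = 4 each), and without tumor 36 they were 2.59 and 1.38. The muscle markers of the table (23 of 30 listed) summed to 2.64 to 4.01 FPKM in the anti-PD-1 tumors and to 464, 25.1, 5.49 and 3.65 FPKM in tumors 36, 37, 39 and 40. The part of muscle in the values of Chrnd and Ip6k3 was not tested.

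The other protein-coding genes had unlike functions and were mostly rare. Zfp420, a zinc finger protein, was the next most abundant coding gene by reads, with normalized counts of 79.4, 52.8, 147 and 44.2 in the anti-PD-1 tumors and 160, 246, 167 and 155 with F. nucleatum. Tumor 18 stood apart among the controls, close to tumor 40, and the gap between the groups was 0.076 on the log2 scale. Fabp7, the brain-type fatty acid binding protein, had 0, 4.66, 0 and 3.94 in the controls and 30.5, 23.2, 14.5 and 7.40 with F. nucleatum, a log2 difference of 2.95 ± 0.81 (SE, n = 4 each). The F. nucleatum tumors, above the controls by the rule, spread over a range from 7 to 38 reads. Pebp4, a phosphatidylethanolamine-binding protein, had 3, 0, 0 and 0 reads in the controls and 10, 8, 5 and 29 reads with F. nucleatum, and tumor 40 held 55.9% of its counts. Its pooled ratio was 15.9 with a 95% counting interval of 5.15 to 79.6.

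Slc35f2, a solute carrier, had 3, 0, 0 and 0 reads against 11, 5, 11 and 3 reads, so that tumor 40 with 3 reads was separated from tumor 11 with 3 reads only by the size factors. Dnajb3, a DnaJ (Hsp40) co-chaperone, had 6, 0, 0 and 6 reads against 11, 19, 14 and 6 reads, and its groups were no longer separated in FPKM. Gm960, a predicted coding gene, was measured in every tumor, with 7, 6, 5 and 14 reads against 21, 13, 17 and 29 reads. Its log2 difference was 1.13 ± 0.33 (SE, n = 4 each), the second smallest of the coding genes after Efemp1. Of the 13 coding genes, 8 had 0 reads in 1 or more anti-PD-1 tumors, and the full set was described after its values were seen. The median log2 difference was 2.26 over the 13 coding genes and 1.95 over the other 33.

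**Figure D3:**
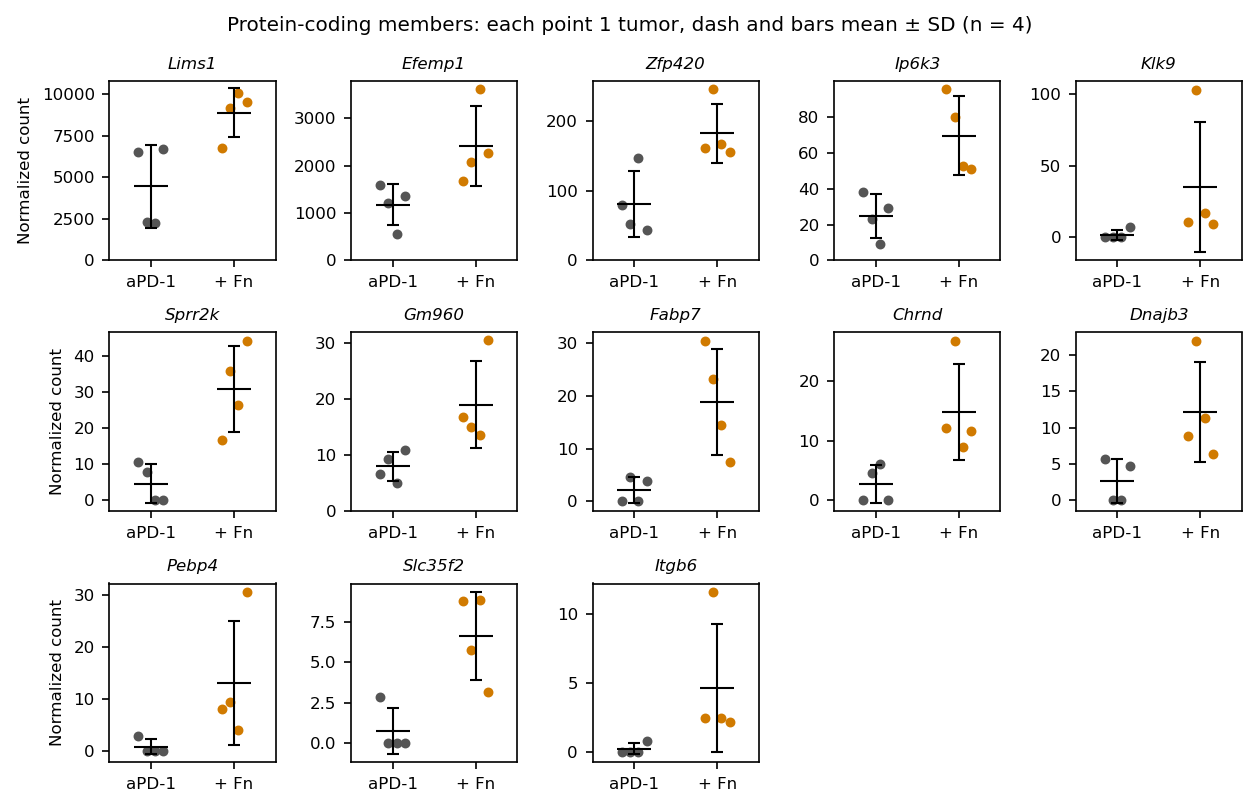
Normalized counts of the 13 protein-coding genes, ordered by mean level, with 1 point per tumor in the anti-PD-1 (aPD-1) and anti-PD-1 + F. nucleatum (+ Fn) groups and a dash with bars for mean ± SD (n = 4). Every orange point lies above every grey point of its panel by the choice of genes, with small margins for Lims1, Efemp1 and Zfp420 and with 1 high tumor in Klk9, Pebp4 and Itgb6.

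The pseudogene Gm18935 had the widest separation of the set. It lies on chromosome 9 (118571608 to 118572271, minus strand, 1 exon) in an intron of Golga4 on the other strand and is a copy of Pimreg, a regulator of mitosis that interacts with the clathrin assembly protein PICALM. It had 0 reads in all 4 anti-PD-1 tumors and 5, 5, 17 and 23 reads in tumors 36, 37, 39 and 40. The normalized counts there were 4.01, 5.80, 13.7 and 24.3, so tumors 39 and 40 held most of them. With a floor of 3 reads in place of the control sum of 0, the pooled ratio was 15.3. It takes the F. nucleatum reads as exact, so it is not a lower limit. The FDR in the authors' deposited table was 0.0110. This gene had the largest gap, 2.33 on the log2 scale, and was also the only one of the 46 with a deposited FDR under 0.05, a limit set here.

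Gm18935 was 89.1% identical to the Pimreg transcript over all its 664 bases. The stretch below shows how close the copies are, from the GENCODE M21 transcripts, 5′ to 3′ in the sense of each transcript, with the 8 bases that differ in capitals. It covers bases 58 to 177 of Gm18935 and bases 192 to 311 of Pimreg, inside the coding sequence.
Gm18935: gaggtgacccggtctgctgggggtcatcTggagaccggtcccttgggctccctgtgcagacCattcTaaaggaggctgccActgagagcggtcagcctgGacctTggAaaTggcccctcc
Pimreg: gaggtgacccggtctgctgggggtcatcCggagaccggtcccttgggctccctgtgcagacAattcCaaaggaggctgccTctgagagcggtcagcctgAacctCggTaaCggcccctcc
Pimreg is not among the 752 genes of the table and was not analysed here, and whether reads of the parent were counted on the pseudogene was not tested.

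The other 9 pseudogenes were also copies of coding genes. AC238811.1 (chromosome 13, 120046573 to 120047013), 99.02% identical to the phosphatase gene Ctdsp1 over 92.5% of its length, was the most abundant of them. It had 0.878 ± 0.287 FPKM in the anti-PD-1 tumors and 2.04 ± 0.347 FPKM with F. nucleatum (mean ± SD, n = 4 each), from normalized counts of 30.6, 15.5, 22.4 and 33.1 against 55.4, 46.4, 58.9 and 71.9. The controls differed among themselves, with tumor 17 lowest and tumors 11 and 19 highest, and the log2 difference of 1.201 ± 0.27 (SE) had an FDR of 0.26 in the authors' deposited table. Gm6723, a copy of Lage3 (95.2% identity), had 0, 0, 0 and 1 reads against 6, 18, 3 and 14, a pooled ratio of 37.6 with a 95% counting interval of 6.39 to 1522. Gm9311, a copy of the UDP-glucuronate decarboxylase gene Uxs1 (86.8% identity), had 0 reads in every control tumor and 6, 6, 3 and 6 reads with F. nucleatum. Its ratio against the floor was 6.42. Its F. nucleatum tumors were the most even of the 6 genes with no control reads, apart from tumor 39.

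Copies of ribosomal protein genes were Gm8692 (of Rps15, 89.8% identity), Gm11975 (of Rpl21, 95.9%) and Gm37568 (of Rps15a, 73.5%). Gm8692 was counted in all tumors, with 11, 4, 10 and 12 reads against 19, 28, 27 and 26, and a log2 difference of 1.296 ± 0.28 (SE, n = 4 each). Gm11975 had 1, 0, 0 and 1 reads against 6, 2, 7 and 5, and 73 annotated genes match it at 90% or more identity over 90% or more of its length. Gm37568 had 0, 0, 2 and 0 reads against 6, 3, 9 and 3. Atp5l-ps1, a copy of the ATP synthase subunit gene Atp5l (98.4% identity), had 2, 0, 3 and 4 reads against 6, 11, 9 and 9. Gm13612 (of the prefoldin gene Pfdn6, 86.8%) had 0, 0, 0 and 3 reads against 4, 3, 15 and 8, and Gm9105 (of the cyclophilin gene Ppil2, 91.2%) had 0, 0, 1 and 0 reads against 2, 6, 7 and 1. Gm9105 thus holds a tumor on each side with 1 read, and its gap of 0.029 on the log2 scale comes from the size factors of tumors 18 and 40. None of the parent genes is among the 752 genes of the table, and no source used here gives how the authors treated reads with several matches.

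Among the long non-coding transcripts, 4 had no read in any anti-PD-1 tumor. Gm20468, an intergenic RNA on chromosome 17 (26861421 to 26898531, plus strand), had 11, 12, 5 and 3 reads in tumors 36, 37, 39 and 40. Its ratio against the floor of 3 control reads was 9.48. Pard3bos2, transcribed from the strand opposite the polarity gene Pard3b on chromosome 1 (62131195 to 62136109, minus strand), had 5, 10, 5 and 3 reads, a ratio of 7.04. Both were highest in tumor 37 and lowest in tumor 40. 2810030D12Rik, on chromosome 8 (13200720 to 13207714, plus strand) and annotated as arising from a bidirectional promoter, had 12, 1, 3 and 7 reads, also a ratio of 7.04. Gm43466, inside an intron of the mannosidase gene Man1a2 on the same strand of chromosome 3, had 9, 2, 5 and 5 reads, a ratio of 6.42. In these last 2 genes tumor 37 was the lowest, at 1 and 2 reads, so the separation there rests on very few fragments. The authors' deposited table gave them an FDR of 0.11, 0.31, 0.52 and 0.48 in the order named.

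The upstream stretches of 2 of these RNAs are shown because they have unlike base composition, while both RNAs had 0 reads in all 4 controls and reads in all 4 other tumors. Pard3bos2 covers chr1:62136110-62136359 on the minus strand, with a GC content of 39.2%, and 2810030D12Rik covers chr8:13200532-13200719 on the plus strand, with 78.7%. Capitals mark TATAAA (the TATA box) and CCAAT in the first and GGGCGG in the second, on either strand.
Pard3bos2 upstream: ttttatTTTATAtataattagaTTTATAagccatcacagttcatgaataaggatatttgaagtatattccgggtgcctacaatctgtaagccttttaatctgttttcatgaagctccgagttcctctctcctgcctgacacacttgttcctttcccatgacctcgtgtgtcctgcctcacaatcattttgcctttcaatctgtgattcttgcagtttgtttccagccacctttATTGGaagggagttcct
2810030D12Rik upstream: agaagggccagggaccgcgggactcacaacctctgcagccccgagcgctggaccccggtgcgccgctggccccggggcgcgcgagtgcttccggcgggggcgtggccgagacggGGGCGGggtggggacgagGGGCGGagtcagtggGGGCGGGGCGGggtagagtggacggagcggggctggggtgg
The first held 2 TATA box matches and 1 CCAAT match, and the second held 4 GC box matches, some of which overlap.

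5430400D12Rik, another bidirectional-promoter RNA on chromosome 7 (79920723 to 79922521), had 3, 0, 0 and 0 reads in the anti-PD-1 tumors and 8, 5, 12 and 11 with F. nucleatum. All 4 F. nucleatum tumors were within a narrow range of normalized counts (5.80 to 11.6), and the pooled ratio was 11.0 with a 95% counting interval of 3.48 to 55.9. Gm15893, antisense to the RNA-binding protein gene Msi2, had a similar pattern, with 0, 0, 3 and 0 reads against 9, 9, 7 and 7. Gm38331 had 0, 0, 2 and 0 reads against 3, 2, 6 and 17, and tumor 40 held 60.8% of its counts.

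Other RNAs annotated as antisense were counted in most tumors. Hk1os, opposite the hexokinase gene Hk1, had normalized counts of 19.1, 0, 21.3 and 11.8 in the controls and 38.5, 38.2, 39.5 and 30.6 with F. nucleatum. The F. nucleatum tumors were nearly equal, while tumor 17 was at 0 among the controls. Bloc1s6os had 6, 0, 5 and 9 reads against 14, 20, 17 and 8. Ict1os, opposite the mitochondrial ribosomal protein gene Mrpl58, had 3, 2, 6 and 5 reads against 17, 8, 9 and 21. Gm15894, opposite the cytokine gene Il34, had 3, 3, 9 and 6 reads against 14, 14, 26 and 25. AC153962.1, opposite Rwdd1, had the smallest gap of all 46 genes (0.0051 on the log2 scale, between tumors 11 and 39), with 21, 3, 5 and 16 reads against 44, 25, 25 and 24, and its groups overlapped in FPKM. Gm43136, opposite Chfr, had 9, 3, 0 and 9 reads against 25, 8, 27 and 18.

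The remaining long or unclassified transcripts ranged from a few reads to over 100 per tumor. BC106179, which lies opposite part of the sialyltransferase gene St6gal1, was the most abundant of them in reads, with 48, 17, 76 and 47 against 115, 102, 107 and 76, and tumors 18 and 40 had equal reads. Gm32031 had 7, 11, 18 and 9 reads against 71, 18, 28 and 25, and CT009754.4 had 16, 7, 4 and 11 against 62, 18, 23 and 26; both were highest in tumor 36. Gm43661, Gm43445 and AC164623.1 each had between 2 and 11 reads in every control tumor and between 9 and 24 reads in every F. nucleatum tumor. Gm44901, in an intron of Mettl9, had 3, 2, 2 and 0 reads against 30, 3, 18 and 15, with tumor 37 close to the controls. Gm2238 had 2, 3, 5 and 0 reads against 11, 19, 37 and 13.

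Of the small RNAs, Gm24727 had the smallest log2 difference of the whole set, and with few reads it still passed a mean of 1 FPKM, a value per length. It is annotated as a snoRNA of 144 bases on chromosome 8 (33691801 to 33691944, plus strand) in an intron of the glutathione reductase gene Gsr on the same strand. Small nucleolar RNAs of the H/ACA class guide pseudouridylation and carry an ACA near their 3′ end. Its sequence from the GENCODE M21 transcripts shows an ACA (in capitals) that starts at base 139 and has 3 bases after it.
Gm24727: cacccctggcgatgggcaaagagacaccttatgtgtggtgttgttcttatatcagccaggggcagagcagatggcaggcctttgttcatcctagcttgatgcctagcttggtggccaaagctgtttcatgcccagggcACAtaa
It had 8, 5, 7 and 13 reads in the anti-PD-1 tumors and 16, 17, 32 and 14 with F. nucleatum, a log2 difference of 1.03 ± 0.24 (SE, n = 4 each). The snoRNA gene Gm23123 is 98.6% identical over the full length of Gm24727, and a transcript of the coding gene Eif4a1 is 93.75% identical. In all, 5 genes match Gm24727 at 90% or more identity over 90% or more of its length, so its counts are uncertain. Gm25219, a miscellaneous RNA in an intron of Kmt2e on the other strand, had 2, 2, 4 and 0 reads against 14, 5, 7 and 22.

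The set differed from the rest of the table in the kind of gene it holds. Protein-coding genes were 28.3% of the 46 genes (13), 77.1% of the 353 other higher genes (272) and 78.5% of the 93 genes that were lower in every F. nucleatum tumor (73). Pseudogenes were 21.7% of the set and 5.95% of the other higher genes, and long non-coding or unclassified transcripts were 45.7% and 15.6%. The exclusions took part in this, since all 8 genes they removed were protein-coding, but of the 54 genes before the exclusions 38.9% (21) were coding. No exclusions were applied to the 93 lower genes, so the 54 and not the 46 are the like set for them. Level moved with class as well: below a mean normalized count of 10, 5 of 26 genes of the set (19.2%) and 73 of 123 other higher genes (59.3%) were coding. At 10 or more these shares were 8 of 20 (40.0%) and 199 of 230 (86.5%). These shares are descriptions of genes chosen on their values, with no test.

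**Figure D4:**
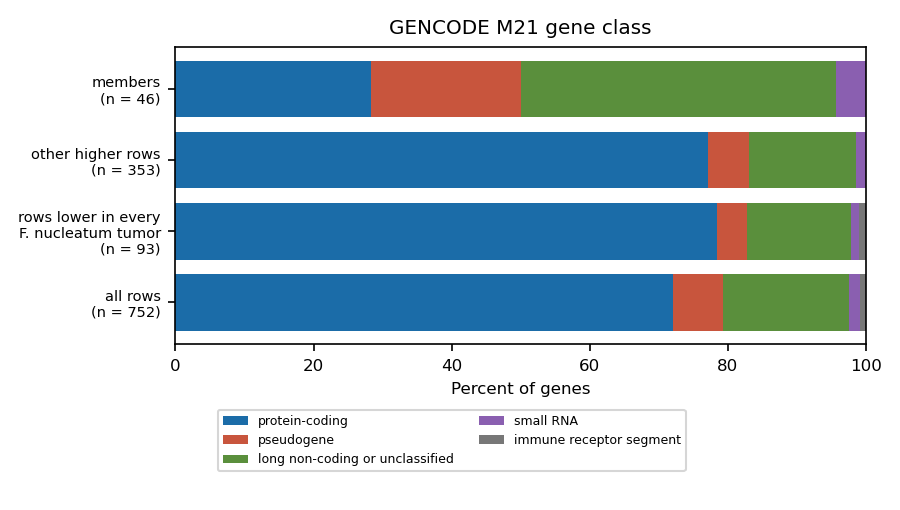
Stacked bars give the percent of genes in each GENCODE M21 class for the 46 genes (members), the 353 other higher genes, the 93 genes lower in every F. nucleatum tumor and all 752 genes. The protein-coding share is 28.3% in the 46 genes and 72.1% in the whole table.

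The transcripts of the set were also shorter and more often of a single exon, which was not compared within a gene class. Their median exonic length was 1449 bases against 2235 in the other higher genes, and 20 of 46 (43.5%) had a single exon after merging all transcripts, against 75 of 353 (21.2%). Of the 33 genes that were not coding, 21 overlapped a protein-coding gene, 6 of them on the same strand and 15 on the opposite strand. In 13 of the 21 no exon base was shared with the coding gene. The 6 on the same strand (Gm24727, Gm37568, Gm43445, Gm43466, Gm44901 and Gm9105) lay wholly in introns of the coding gene. The 8 that shared exon bases were all on the opposite strand and include Gm32031 (43.3% of its exonic length, with Spty2d1) and AC238811.1 (40.8%, with Gm21188). The libraries were strand-specific per the labels' protocols, but no source used here gives the strand setting of the counting, so these genes and their partners cannot be told apart with certainty. None of the coding partners is in the table.

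The 46 genes were spread over 17 chromosomes, with at most 7 on 1 chromosome. The closest pair was Gm20468 and Ip6k3 on chromosome 17, 245434 bases apart, and no other pair was closer. Promoter entries were found in RefSeq for 18 of the 46, in 22 windows, which were read over the 250 bases before the start on both strands for 6 motifs. The CCAAT box (CCAAT) was in 45.5% of these windows and in 33.8% of all 32851 windows of the reference, the GC box (GGGCGG) in 36.4% and 32.7%, and the TATA box (TATAAA) in 13.6% and 12.4%. The E-box CACGTG was in 9.09% and 6.02%, the AP-1 site TGACTCA in 4.55% and 4.46%, and the cyclic AMP element TGACGTCA in 0 windows of the set and 1.55% of all. None of these motifs contains another. With 22 windows these shares are coarse, and they are given with no test.

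The rule asks for a higher value in all 4 F. nucleatum tumors and limits the shares of tumors 36 and 37, so the following counts describe the set and do not test it. The highest F. nucleatum value was in tumor 37 for 17 genes, in tumor 40 for 11, in tumor 39 for 10 and in tumor 36 for 8, and the lowest was in these tumors for 10, 14, 11 and 11. Median reads per gene were 14, 13.5, 16 and 14 in tumors 36, 37, 39 and 40 and 2 to 3.5 in the anti-PD-1 tumors. In the controls 16 to 22 of the 46 genes had 0 reads, with the most in tumor 17, which also had the smallest size factor. One tumor held 50% or more of the counts in 6 of the 46 genes. Leaving out tumors 36 and 37 together gave a median log2 difference of 2.09 over the same genes, from values that the rule also used.

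The gap between the groups, the value that the rule used, varied widely over the set. It was above 1 on the log2 scale in 6 genes, which were the 6 with 0 reads in every control tumor, and below 0.1 in 7 genes (Efemp1, Zfp420, BC106179, Lims1, Gm43136, Gm9105 and AC153962.1), among which Gm9105 had 1 control read. The median gap was 0.39. Over the whole set, 17 genes had at most 3 reads summed over the 4 controls, and 14 had 3 reads or fewer in their lowest F. nucleatum tumor. A bar of 3 reads in every F. nucleatum tumor would leave 40 of the 46. Just outside the rule were Bmp5, a bone morphogenetic protein (gap -0.013), Acr, the protease of the sperm acrosome (-0.024), Fbxo47, an F-box protein (-0.030), and Card14, a scaffold of epidermal NF-kB signalling (-0.042), and a further 52 higher genes were tied at a gap of 0. Bmp5 had 104, 59, 160 and 39 reads against 248, 139, 235 and 242.

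**Figure D5:**
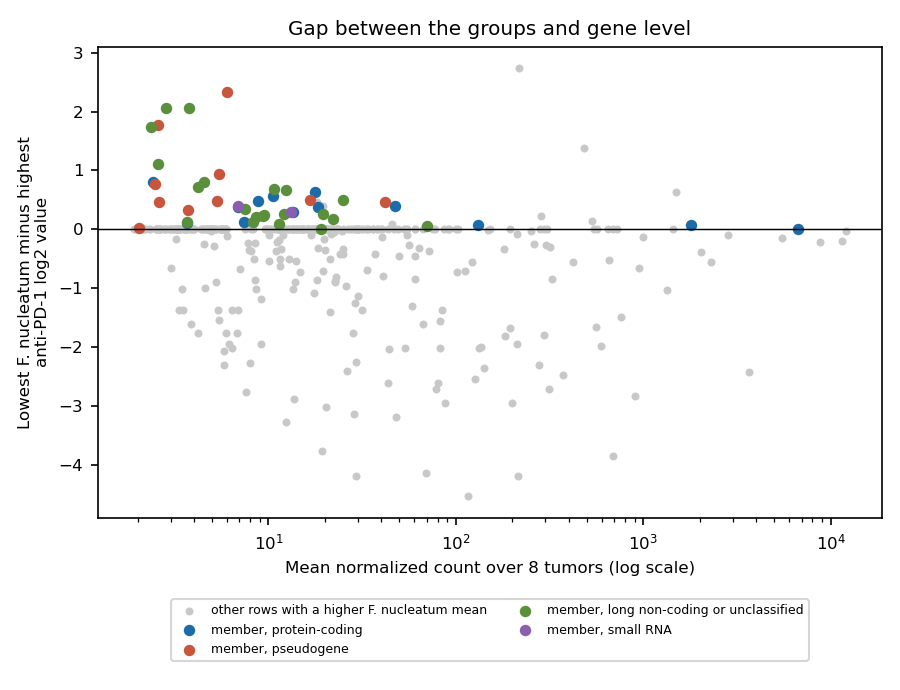
Gap between the lowest F. nucleatum and the highest anti-PD-1 log2 value (vertical) against the mean normalized count over 8 tumors (log axis) for the 399 higher genes, with the 46 genes coloured by class. The widest gaps of the set are at mean counts below 10 (Gm18935 at 2.33), and the grey points above 0 are the 8 genes removed by the exclusions.

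The set had little in common by annotated function. A GO term was attached in the authors' deposited table to 12 of the 46, all coding, and a KEGG pathway to 4: Ip6k3 (phosphatidylinositol signalling), Itgb6 (extracellular matrix receptor interaction), Chrnd (neuroactive ligand and receptor interaction) and Fabp7 (PPAR signalling). The exclusions by GO term could therefore act on annotated genes only. Some listed marker genes met the value rule and were then removed by the exclusions. These were Casq1, Myh4, Mylpf and Tnnc2 of the muscle list and Alas2 of the red blood cell list. None of the 46 was in any of 12 marker lists (194 entries, 63 in the table), which the exclusions fixed in part. None was in any of 12 pathway lists (286 entries, 7 in the table). Those 7 included Bmp5 of the TGF-beta and BMP list and Atp2a1 and Kcnc4 of the excitable cell list, which were higher, and 3 genes of the glutathione and xenobiotic list, which were lower. The hypoxia, succinate, Wnt, Notch and Hedgehog, growth factor, epithelial to mesenchymal transition, matrix and lipid lists had no gene in the table, and their values were not analysed here.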

How the data were processed

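Bulk RNA-seq of 8 tumors (4 per group) was used. The authors deposited, per gene and tumor, a log2 normalized count (+ 1) and an FPKM value, and per gene a log2 fold change, a p-value and an FDR; no source used here gives the test. FastQC, STAR 2.5, Cuffnorm, DESeq 1.22.1 and mm10 are named per the submitters' processing notes, with no role or order. The deposited log2 values were turned into normalized counts, which were whole multiples of the value of 1 read in 100% of 3917 values above 0 (tolerance 0.1 read, tested on simulated data). No test was run, because the rule used the contrast. Members and lists were chosen with earlier results of these data known. Full values went to members with a mean of 1 FPKM or more, an FDR under 0.05 or one of the 8 widest gaps, and every member was named. Other full values were chosen after they were seen. Each SE is of the difference between group means on the log2 scale (n = 4 each). Pooled ratios divide summed reads by summed size factors, with exact binomial 95% counting intervals that leave out the spread between tumors. All 752 IDs were found in GENCODE M21 (GRCm38, the assembly of mm10), and copies were sought with blastn 2.17.0. Scripts ran in Python 3.11.15 (pandas 2.3.3, numpy 2.4.6, matplotlib 3.10.9, scipy 1.17.1).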

Additional observations from a re-analysis of the deposited data

Results flagged for a closer look

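In a group of 4 tumors, a value was marked when the ratio of its gap to the nearest other tumor to the group's range of log2 values exceeded Dixon's 95% critical value. Of 86 groups with unequal values over the 46 genes, 17 were marked (19.8%), where chance marks about 1 in 20 for normal values. Groups of counts near 0 are not of that kind. In 11 groups the ratio was 1, because 1 anti-PD-1 tumor had reads and the other 3 had 0: tumor 11 for Pebp4, Slc35f2 and 5430400D12Rik, tumor 18 for Gm9105, Gm37568, Gm38331 and Gm15893, and tumor 19 for Klk9, Gm6723, Itgb6 and Gm13612. Tumor 17 was low for Bloc1s6os (ratio 0.863), with 0 reads.

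In the F. nucleatum group tumor 37 was high for Itgb6 (0.933), Zfp420 (0.844) and Pard3bos2 (0.830) and low for Gm43136 (0.839), and tumor 40 was low for Hk1os (0.872). No value in tumors 36 or 39 was marked.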

How the results depend on the processing

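The rule gave 49 genes on FPKM, of which 44 were among the 46 (AC153962.1 and Dnajb3 left), and 45 or 46 genes with other share limits. It gave 4 genes with a mean of 1 FPKM or more, 20 with a mean normalized count of 10 or more, and 8, of which 7 were among the 46, when each tumor was centred to the same median over the table. Centring lowered every difference between group means by the same 0.61 on the log2 scale, by construction, and the table it centres holds selected genes. The shift was uneven over tumors: -0.68 in tumor 36, -1.33 in tumor 37, 0.46 in tumor 39 and 0.32 in tumor 40. In the anti-PD-1 tumors it was 0.043 to 0.59. Leaving out 1 tumor gave 52 to 82 genes and leaving out tumors 36 and 37 gave 100. With fewer tumors to separate, the rule can only gain genes, so by construction all 46 remained. The largest counts were without tumor 37 (82) and without tumor 39 (74). The median log2 difference was 1.87 to 2.12 with 1 tumor left out, 0.19 on log2(FPKM + 1), 0.98 on log2(FPKM + 0.1), and 1.12 over the 4 genes with 1 FPKM or more. It was 2.54 with pooled counts and a floor of 3 reads, a setting added after seeing the data, as were the removal of tumors 36 and 37 from the count and the bar of 3 reads. The authors' FDR was under 0.1 for 3 of the 46 and under 0.01 for 0. Over 23 genes and 253 alternative values, none changed direction. The rule fixes this when a tumor is left out, and centring takes 0.61 from differences of 1.03 or more. On FPKM, a gene whose groups stay separated cannot reverse either. Of the 253 values, 46 moved by more than the gene's spread, 21 of them on log2(FPKM + 1) and 16 on log2(FPKM + 0.1). No paired analysis was possible because the replicate numbers are names in accession order and the results come from no test. Depth limits most of the set: 29 of the 46 genes had fewer than 100 reads in all.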
